A study of Oryza sativa with 8 samples.

Results

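Deeply nested TADs, called deep TADs below, were chosen by the nesting level that the deposited lists give each domain, a level of 3 or more. A TAD (topologically associating domain) is a chromatin segment whose parts contact each other more than they contact their neighbours, and its level is the number of larger TADs of the same list around it, with 0 for an outermost TAD. Over 8 Hi-C libraries of rice, 7247 of 80866 listed TADs met this rule. The remaining 73619 TADs had levels 0 to 2. Every deep TAD lay inside exactly 1 TAD of the level above it, so the levels describe true nests.

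Hi-C, which joins and sequences DNA fragments that lie close together in the nucleus, was done with DpnII on aerial parts of 3-week-old seedlings. The cultivars were Nipponbare (Nip), of the japonica group, and 93-11, of the indica group, and each was studied after heat stress (HS) and under normal conditions. HS was 45 °C for 36 h, at high humidity and in weaker light than during growth, and the methods do not say whether the normal seedlings shared these settings, so temperature cannot be told apart from them. The groups Nip HS, Nip normal, 93-11 HS and 93-11 normal had 2 replicates each, described in the methods as biological. Each cultivar has coordinates of its own, from a build that was not stated in the sources used here. Whole seedling tops hold many cell types, and each library averages over them.

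TADs arise where contacts are favoured within a stretch and held back at its borders, and smaller domains can form inside larger ones. On a larger scale, chromatin falls into an A compartment, which is open, rich in genes and active, and a B compartment, which is compact and holds more repeats. In cereals with small genomes, A chromatin lies mostly on the chromosome arms and B chromatin mostly around the centromere.

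Deep TADs were fewer in HS than in normal libraries of both cultivars. Nip HS libraries held 516 and 635 of them, against 1113 and 1211 in Nip normal libraries. In 93-11, there were 782 and 630 in HS libraries and 1301 and 1059 in normal libraries. HS and normal counts did not overlap in either cultivar. The means were 575.5 ± 84.1 in HS and 1162 ± 69.3 in normal in Nip, a ratio of 0.495, and 706 ± 107 and 1180 ± 171 in 93-11, a ratio of 0.598 (SD, n = 2 each). As a share of all TADs, deep TADs were 4.95% in HS and 13.3% in normal in Nip, and 6.05% in HS and 14.0% in normal in 93-11. The level was the value that chose the members, so these counts are a description and were not tested. The depth and the number of contacts of each library were not used here. Their part in the differences between HS and normal, here and below, was not tested.

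The whole lists moved the other way. All TADs together numbered 11592 in HS and 8735 in normal in Nip, and 11682 in HS and 8424 in normal in 93-11, as group means. The excess in HS stood at the outermost levels. The ratio of HS to normal was 1.69 in Nip and 1.65 in 93-11 at level 0, and 1.55 and 1.62 at level 1. Just outside the threshold, at level 2, it was 1.00 in Nip and 1.17 in 93-11. Just inside it, at level 3, it was 0.601 and 0.699. It fell further at level 4, to 0.272 and 0.430, and stood at 0.232 and 0.223 at level 5. The ratio thus passed to below 1 between levels 2 and 3 in both cultivars.

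**Figure D1:**
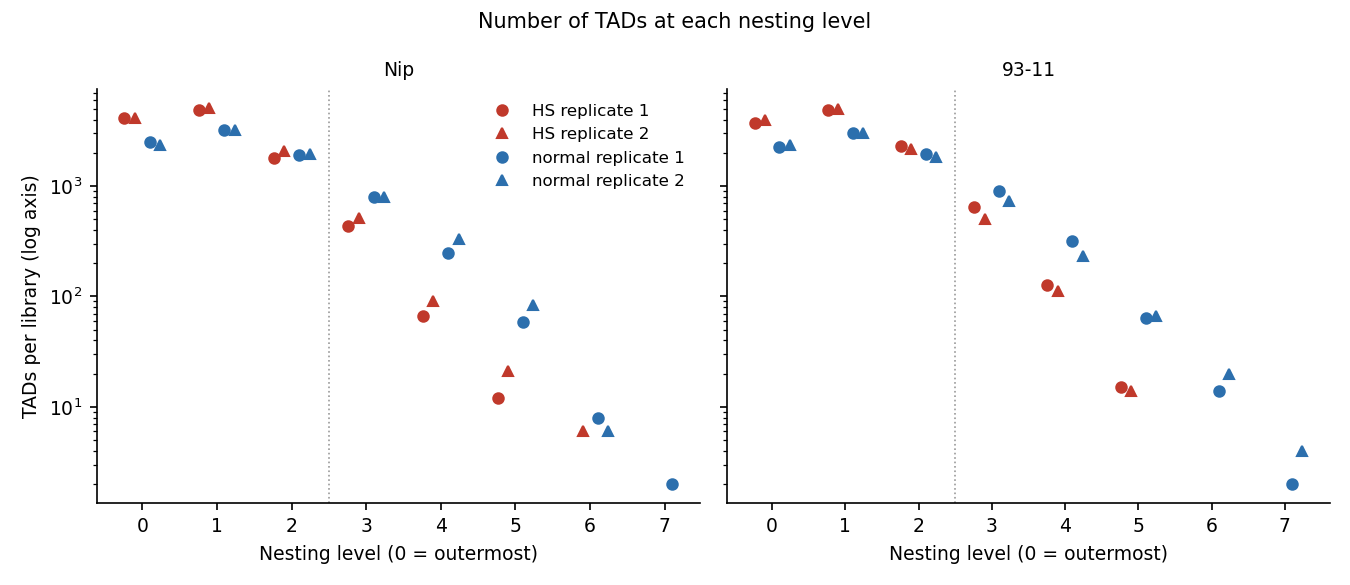
Number of TADs at each nesting level (x axis, 0 is outermost) in each of the 8 libraries (y axis, log scale), with HS in red and normal in blue, circles for replicate 1 and triangles for replicate 2, and no point where a library lists no TAD of that level. HS libraries lie above normal libraries at levels 0 and 1 and below them at levels 3 to 5 in both cultivars.

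The deepest nests were almost all in normal libraries. Nip HS libraries reached levels 5 and 6, against levels 7 and 6 in Nip normal libraries. Both 93-11 HS libraries stopped at level 5, and both 93-11 normal libraries reached level 7. TADs of level 4 or more numbered 79 and 117 in Nip HS libraries and 319 and 417 in Nip normal libraries. In 93-11 they numbered 141 and 125 in HS and 400 and 321 in normal. Their ratio of HS to normal was 0.266 in Nip and 0.369 in 93-11, lower than the ratio over all deep TADs.

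Deep TADs came in sets within a shared parent, the TAD of the level above. No parent held fewer than 2 of them. Parents with exactly 2 made up 93.9% of the parents in HS and 89.0% in normal in Nip, and 93.6% and 89.5% in 93-11. A deep TAD took a median of 50% of its parent in HS and 46.4% in normal in Nip, and 50% and 46.5% in 93-11. It shared at least 1 border with that parent in 93.6% of cases in HS and 91.7% in normal in Nip, and in 93.9% and 92.3% in 93-11. TADs of levels 1 and 2 shared a border with their parent in 88.1% of cases in HS and 82.5% in normal in Nip, and in 89.4% and 86.7% in 93-11. The border of the outermost TAD was reached by few deep TADs, 15.4% in HS and 12.4% in normal in Nip, and 17.5% and 13.2% in 93-11. Most deep TADs were thus the parts of a parent divided in 2, away from the outer edge of the nest. All but a small part were innermost, with no further TAD inside. Innermost TADs made up 477 of 516 and 578 of 635 deep TADs in Nip HS, and 964 of 1113 and 1014 of 1211 in Nip normal. In 93-11 they were 715 of 782 and 569 of 630 in HS, and 1112 of 1301 and 907 of 1059 in normal.

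The median size of deep TADs was lower in every HS library than in any normal library of its cultivar. It was 35 and 35 kb in Nip HS libraries, against 55 and 60 kb in Nip normal libraries. In 93-11 it was 35 and 40 kb in HS libraries and 60 and 60 kb in normal libraries. Deep TADs in HS were thus little longer than the shortest TADs of the lists. The difference was -22.5 kb in each cultivar (exact two-sided permutation test over libraries, p = 0.33 in each, the smallest that 2 against 2 libraries allow). With labels permuted within both cultivars at once, the exact test over 36 relabellings gave p = 0.056, the smallest they allow, and p = 0.22 after Benjamini-Hochberg adjustment over the 4 measures compared between conditions. The design cannot reach 0.05 here.

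The smallest deep TADs were 25 kb in every library, the shortest length in the lists. TADs of 25 to 40 kb made up 68.2% of deep TADs in HS and 32.1% in normal in Nip, and 61.6% and 28.4% in 93-11. Deep TADs of 100 kb or more were 4.18% in HS and 20.7% in normal in Nip, and 5.72% and 24.3% in 93-11. Their longest member was 230 and 275 kb in Nip HS, 440 and 400 kb in Nip normal, 330 and 250 kb in 93-11 HS and 470 and 420 kb in 93-11 normal. Size hardly changed with level among deep TADs. From level 3 to level 5 the medians lay between 30 and 40 kb in HS libraries and between 50 and 65 kb in normal libraries, and at level 2 they lay at 35 to 40 kb and 60 to 65 kb. A TAD must fit inside its parent, so nesting itself bounds these sizes.

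**Figure D2:**
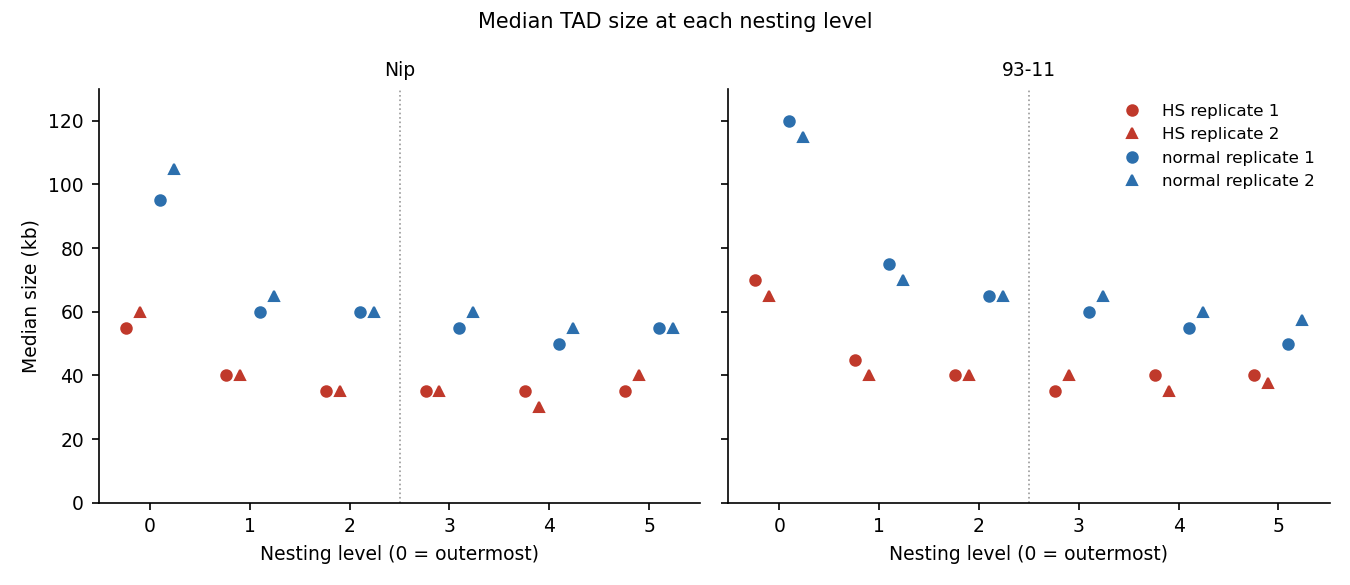
Median TAD size in kb (y axis) at nesting levels 0 to 5 (x axis) in each library, HS in red, normal in blue, circles for replicate 1 and triangles for replicate 2. HS medians lie below normal medians at every level, and within each condition the medians of levels 2 to 5 lie close together.

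Outermost TADs that held deep TADs, called holding TADs from here on, were few and large. There were 195 and 231 in Nip HS libraries and 310 and 313 in Nip normal libraries. In 93-11, HS libraries had 283 and 221 and normal libraries 362 and 307. They made up 5.20% of outermost TADs in HS and 12.9% in normal in Nip, and 6.63% and 14.5% in 93-11. Their median size was 182.5 kb in HS and 362.5 kb in normal in Nip, and 197.5 and 360 kb in 93-11. Other outermost TADs had medians of 55 kb in HS and 82.5 kb in normal in Nip, and 65 and 92.5 kb in 93-11. Holding TADs covered 11.9% of the genome in HS and 30.8% in normal in Nip, and 14.5% and 32.3% in 93-11. The deep TADs themselves covered 5.49% in HS and 15.9% in normal in Nip, and 6.96% and 17.1% in 93-11.

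Every holding TAD had at least 2 deep TADs, and the most crowded had 10 to 14, depending on the library. Holding TADs with 6 or more were 6.80% of all holding TADs in HS and 20.5% in normal in Nip, and 7.38% and 16.7% in 93-11. None of the outermost TADs below 100 kb held any in any library. TADs were at least 25 kb long and every parent of any level held at least 2, so that a nest down to level 3 takes at least 100 kb.

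The share that held deep TADs depended on the size of the outermost TAD, and the order of HS and normal depended on it too. Between 100 and 200 kb, 13.4 ± 0.779% of outermost TADs in HS and 4.02 ± 0.734% in normal held deep TADs in Nip (SD, n = 2 each). In 93-11 the shares were 12.5 ± 2.88% and 1.36 ± 0.425%. Here HS was the higher. At 200 to 400 kb the shares lay close together when pooled, at 33.9 ± 5.96% in HS and 33.4 ± 1.17% in normal in Nip, and 38.2 ± 1.63% and 35.8 ± 3.72% in 93-11. Its parts differed in opposite directions in their means. At 200 to 300 kb the HS mean was the higher, with 33.1 ± 1.83% in HS and 24.3 ± 2.37% in normal in Nip, and 37.4 ± 4.88% and 27.5 ± 5.90% in 93-11. At 300 to 400 kb the HS mean was the lower, with 39.4 ± 26.8% in HS and 49.6 ± 0.977% in normal in Nip, and 42.4 ± 12.1% and 51.3 ± 1.82% in 93-11, where the spread of the HS libraries was larger than the difference. At 400 kb or more HS was the lower when pooled, with 59.4 ± 13.3% against 72.4 ± 0.675% in Nip and 45.4 ± 2.03% against 70.5 ± 3.65% in 93-11. These HS shares rest on 22 and 16 outermost TADs in Nip and 32 and 25 in 93-11. In Nip the parts of this class went opposite ways. At 400 to 500 kb the shares were 45.6 ± 20.3% in HS and 72.9 ± 2.07% in normal. At 500 kb or more they were 91.7 ± 11.8% in HS, from 6 outermost TADs per library, and 71.8 ± 3.77% in normal. In 93-11 HS was the lower in both parts, with 55.2 ± 2.69% against 65.7 ± 4.96% and 34.2 ± 9.83% against 76.3 ± 1.79%.

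Large outermost TADs were fewer in the HS lists. Those of 200 kb or more numbered 258 and 247 in Nip HS libraries, against 669 and 670 in Nip normal libraries, and 342 and 303 in 93-11 HS libraries, against 744 and 737 in 93-11 normal libraries. Per 1 Mb of such TADs, there were 3.53 and 5.18 deep TADs in Nip HS libraries and 4.85 and 5.11 in Nip normal libraries, which overlap. In 93-11 there were 4.53 and 4.55 in HS and 5.09 and 4.35 in normal, which overlap as well. The ratio of HS to normal was 0.875 in Nip and 0.961 in 93-11 on this scale, against 0.495 and 0.598 for the plain counts. This scale was chosen after seeing the data, and it counts only deep TADs that lay inside outermost TADs of 200 kb or more. These were 251 of 516 and 338 of 635 deep TADs in Nip HS libraries and 1057 of 1113 and 1172 of 1211 in Nip normal libraries. In 93-11 they were 438 of 782 and 384 of 630 in HS and 1283 of 1301 and 1047 of 1059 in normal. The scale thus leaves out a much larger part of the deep TADs of HS libraries. Deep TADs and large outermost TADs were both fewer in HS, and the part of each in the other was not tested.

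**Figure D3:**
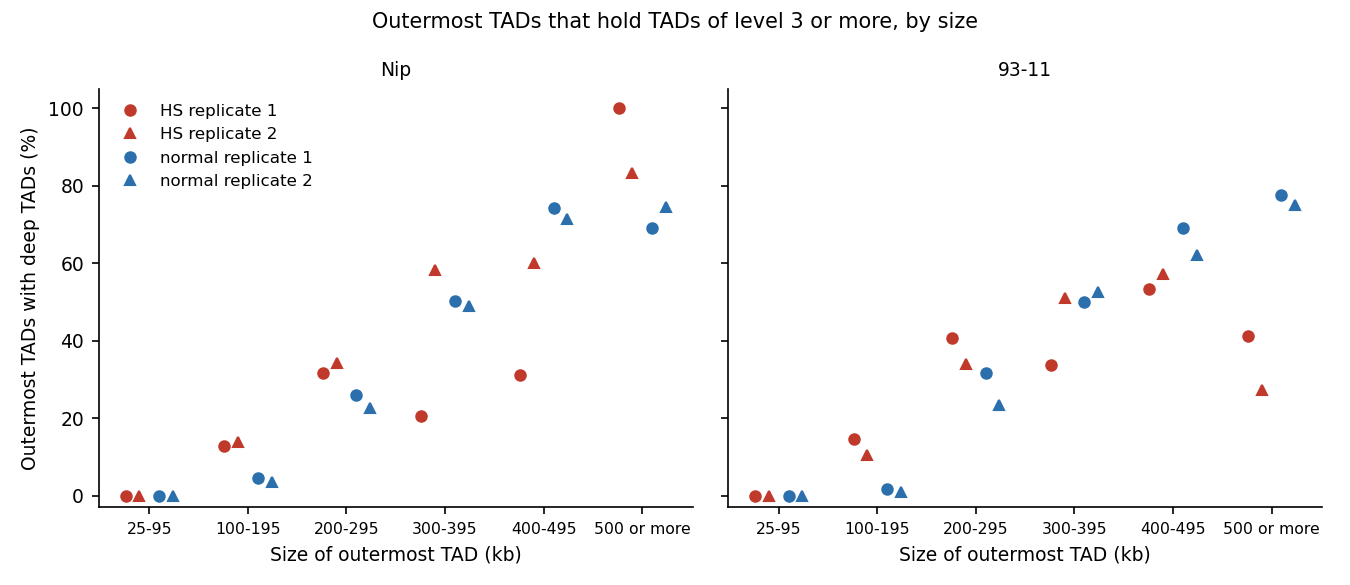
Percent of outermost TADs that hold TADs of level 3 or more (y axis) by the size of the outermost TAD in kb (x axis) in each library, HS in red, normal in blue, circles for replicate 1 and triangles for replicate 2. Shares grow with size below 500 kb in normal libraries, HS lies above normal between 100 and 200 kb, and the HS points from 400 kb on rest on 6 to 17 TADs each.

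Deep TADs lay in the B compartment more often than shallower TADs of the same library. A TAD was given the compartment of the 50-kb bin at its midpoint, A where the deposited PC1 score, the first principal component of the contact correlation matrix, was above 0. In Nip, 35.5% and 32.6% of deep TADs were in A in HS libraries, and 34.5% and 34.4% in normal libraries. TADs of levels 0 to 2 were in A in 51.6% and 50.9% of cases in HS and 53.9% and 54.4% in normal. In 93-11, the deep shares were 46.2% and 44.6% in HS and 38.9% and 33.2% in normal, beside 51.1% and 52.0% in HS and 52.5% and 52.7% in normal at levels 0 to 2. The share was lower for deep TADs in 8 of 8 libraries, with means of 37.5% and 52.4% and a mean difference of -14.9 ± 5.82 percentage points (SD over libraries). The exact two-sided sign-flip permutation test gave p = 0.0078 (adjusted p = 0.0078 over 3 measures), the smallest that 8 libraries allow. The libraries of a cultivar share a genome, so they are not fully separate observations, and within one cultivar the smallest p is 0.125. Deep TADs of one nest overlap and can share a bin, so libraries and not TADs were the units. Of all scored bins, 48.5% to 50.04% were in A, depending on the library.

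The share in A declined step by step with level in normal libraries. In Nip normal replicate 1, it was 58.6% at level 0, 54.3% at level 1 and 46.9% at level 2, and then 36.5%, 30.7% and 25.5% at levels 3, 4 and 5. In 93-11 normal replicate 2, it was 55.5%, 54.5% and 46.1% at levels 0 to 2, and 37.0%, 26.2% and 19.2% at levels 3 to 5. HS libraries of Nip declined too down to level 4, with 37.6% and 35.1% at level 3 and 22.6% and 26.4% at level 4. At level 5 they parted, with 30% of 10 scored TADs in replicate 1 and 4.76% of 21 in replicate 2. In 93-11 HS replicate 1, it was 53.1%, 51.5% and 46.8% at levels 0 to 2, and 47.0%, 42.9% and 36.4% at levels 3 to 5. In 93-11 HS replicate 2, it was 53.1%, 51.5% and 51.1%, and then 43.4%, 50.5% and 46.2%.

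**Figure D4:**
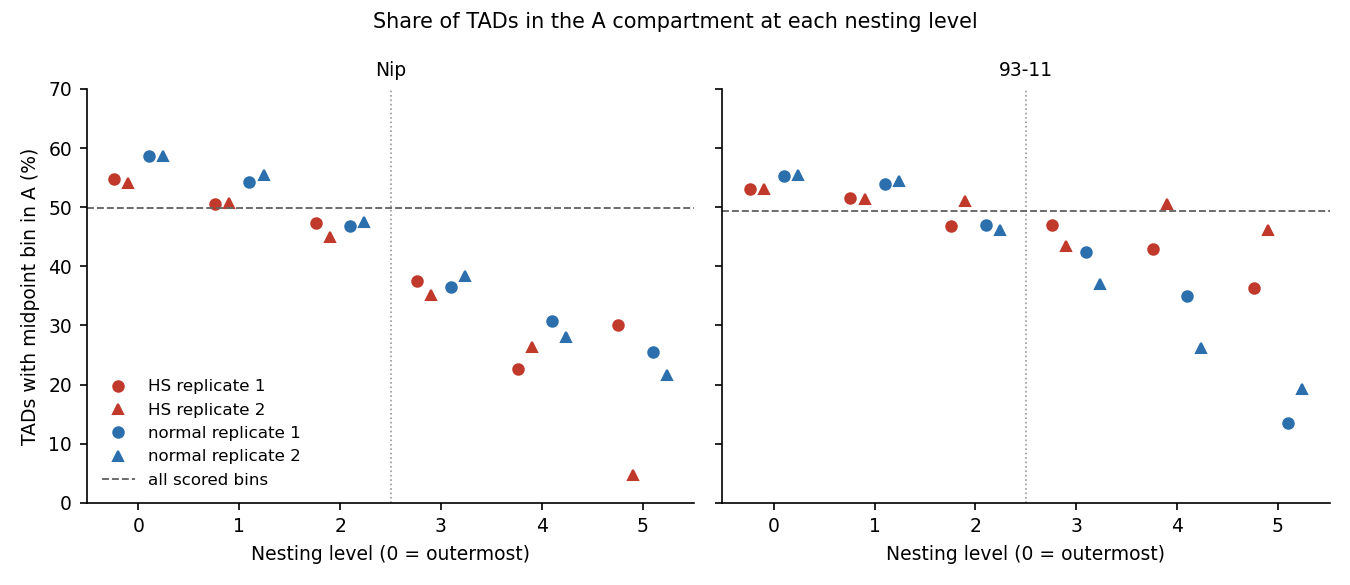
Percent of TADs whose midpoint bin is in the A compartment (y axis) at nesting levels 0 to 5 (x axis) in each library, HS in red, normal in blue, circles for replicate 1 and triangles for replicate 2, and a dashed line for all scored bins. Shares fall below the line from level 2 on in Nip, and at levels 4 and 5 the HS points of 93-11 lie above its normal points. The HS points at level 5 rest on 10 to 21 TADs a library.

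Between conditions, the share of deep TADs in A differed by -0.389 percentage points in Nip, with overlapping libraries (exact permutation test, p = 1). It became 1.05 points without HS replicate 2, so no direction can be given for Nip. In 93-11 it was 9.34 points higher in HS, with no overlap (exact permutation test, p = 0.33, the smallest possible), and stayed between 6.52 and 12.2 points when single libraries were left out. The joint exact test over both cultivars gave p = 0.22 (adjusted p = 0.30). The change in Nip minus that in 93-11 was -9.73 points, with an exact p = 0.17 over 36 relabellings. Over all scored bins, the A share was 49.9% in HS and 48.7% in normal in 93-11, a much smaller shift than that of its deep TADs.

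Bins at deep TADs held fewer annotated genes. They averaged 4.82 and 4.60 genes per 50-kb bin in Nip HS libraries and 4.44 and 4.71 in Nip normal libraries, beside 5.50 over all bins. In 93-11 they averaged 4.68 and 4.47 in HS and 4.15 and 3.99 in normal, beside 5.23 over all bins. Deep TADs had 4.48 genes per bin over the 8 libraries and TADs of levels 0 to 2 had 5.43, a difference of -0.944 ± 0.227 that was negative in 8 of 8 libraries (exact sign-flip test, p = 0.0078, adjusted p = 0.0078). Bins with 0 to 2 genes were 14.7% of all bins in Nip and 19.5% in 93-11. They made up 22.1% and 24.3% of the bins at deep TADs in Nip HS, 24.7% and 24.6% in Nip normal, 23.3% and 27.6% in 93-11 HS and 32.8% and 35.0% in 93-11 normal.

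The lower gene number was also present within each compartment. Within A bins, deep TADs averaged 6.48 genes and TADs of levels 0 to 2 averaged 6.84, lower in 7 of 8 libraries (-0.357, exact sign-flip test, p = 0.016). Within B bins, the means were 3.51 and 4.09, lower in 8 of 8 libraries (-0.583, exact sign-flip test, p = 0.0078). Between HS and normal, genes per bin at deep TADs differed by 0.132 in Nip and 0.505 in 93-11, higher in HS in both (exact permutation tests, p = 0.67 and p = 0.33, jointly p = 0.11, adjusted p = 0.22). The Nip libraries overlapped, and the sign turned to -0.0061 without normal replicate 1. The 93-11 libraries did not overlap.

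Deep TADs lay farther from the chromosome ends. The median distance from the nearer end was 8.94 and 8.64 Mb in Nip HS libraries and 8.69 and 8.38 Mb in Nip normal libraries. In 93-11 it was 8.80 and 8.65 Mb in HS and 9.10 and 9.55 Mb in normal. Between HS and normal it differed by 0.260 Mb in Nip, with overlapping libraries, and by -0.598 Mb in 93-11, with no overlap (exact permutation tests, p = 0.67 and p = 0.33, jointly p = 0.50, adjusted p = 0.50). Over the 8 libraries deep TADs stood at 8.84 Mb and TADs of levels 0 to 2 at 7.82 Mb, a difference of 1.03 ± 0.369 Mb, farther in 8 of 8 libraries (exact sign-flip test, p = 0.0078, adjusted p = 0.0078). The middle of the chromosomes (40 to 50% of the length from the nearer end) held 21.1% to 31.4% of deep TADs and 18.3% to 19.9% of TADs of levels 0 to 2. This shift was not found once the compartment was held fixed. Within A bins, the difference was -0.0040 Mb (exact sign-flip test, p = 0.98), and within B bins it was -0.115 Mb (p = 0.31). Position and compartment thus moved together with depth of nesting. The splits by compartment were chosen after seeing the data.

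Within the holding TADs, deep TADs were set against TADs of levels 1 and 2 of the same nests, a comparison added after seeing the data. The share in A was 37.5% for deep TADs and 39.8% for levels 1 and 2 (-2.33 percentage points, lower in 6 of 8 libraries, exact sign-flip test, p = 0.047, adjusted p = 0.070). Genes per bin were 4.48 and 4.86 (-0.381, lower in 8 of 8, exact sign-flip p = 0.0078, adjusted p = 0.023). The distance differed by 0.149 Mb (exact sign-flip test, p = 0.29). The difference in A share was thus smaller inside the nests than between deep TADs and all shallower ones. Holding TADs were in A in 40.2% of cases and other outermost TADs in 57.2% (-17.0 points, lower in 8 of 8, exact sign-flip p = 0.0078). Among outermost TADs of 200 to 400 kb the shares were 39.4% and 43.5% (-4.04 points, lower in 7 of 8, exact sign-flip p = 0.039). Size thus moved with the difference between outermost TADs. It did not do so for deep TADs themselves, in a planned comparison of TADs of 50 to 100 kb. There, 34.8% of deep TADs and 54.6% of TADs of levels 0 to 2 were in A (-19.8 points, lower in 8 of 8, exact sign-flip p = 0.0078). In this size class genes per bin differed by -1.25 and the distance by 1.17 Mb.

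Bins with no PC1 score took a larger share of deep TADs than of shallower ones in 7 of 8 libraries, all but Nip HS replicate 2. Such bins were 5.05% of all bins in Nip and 5.06% in 93-11. They held the midpoints of 5.04% and 3.94% of deep TADs in Nip HS and 7.996% and 7.93% in Nip normal, and of 4.48% and 7.46% in 93-11 HS and 9.84% and 12.2% in 93-11 normal. For TADs of levels 0 to 2 this share was 3.55% to 4.81%. Shares in A leave these TADs out.

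Chromosomes differed in how densely they held deep TADs. In Nip, chromosome 9 ranked between 1 and 3 among the chromosomes in deep TADs per Mb in all 4 libraries, with 1.79 and 2.57 in HS and 4.10 and 4.97 in normal. Chromosome 2 of Nip ranked between 1 and 4, with 1.59 and 3.13 per Mb in HS and 3.91 and 3.86 in normal. Chromosome 8 was sparse in both cultivars. It ranked 7 to 12 in Nip and 9 to 12 in 93-11, where it had 1.09 and 0.546 per Mb in HS and 2.29 and 2.12 in normal. The ratio of HS to normal was below 1 on all 12 Nip chromosomes, between 0.352 and 0.709. In 93-11 it was between 0.281 and 0.922 on 11 chromosomes and 1.23 on chromosome 12, which had 2.27 and 2.04 deep TADs per Mb in HS and 2.08 and 1.42 in normal. HS and normal libraries overlapped on this chromosome, on chromosomes 7, 9 and 11 of 93-11 and on chromosome 11 of Nip, which had 0.591 and 2.88 per Mb in HS and 2.75 and 3.72 in normal.

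The single deepest nest of Nip lay on chromosome 6 in normal replicate 1. Its outermost TAD was chr6:24570001-24975000 (405 kb), and 6 further TADs followed each other inward, of 380, 300, 210, 125, 95 and 65 kb. The 65-kb TAD was divided into the 2 TADs of level 7, chr6:24600001-24630000 and chr6:24630001-24665000. Down to level 5, the TADs had the start of the outermost TAD in common, so that this nest shortened from one side. All lay in B, with a PC1 of -0.038 at the innermost TADs. The other libraries listed outermost TADs here too, of 325 and 370 kb in Nip HS and 380 kb in Nip normal replicate 2. Their highest levels were 5 and 3 in HS and 4 in normal.

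In 93-11, 6 TADs reached level 7, all in normal libraries and in pairs on chromosomes 2, 5 and 9. The pair on chromosome 2, chr2:7885001-8010000 and chr2:8010001-8070000, lay in an outermost TAD of 545 kb, chr2:7850001-8395000, that held 10 deep TADs. The TADs of levels 2 to 6 around it, of 430 to 185 kb, all began at the same position as the first of the pair. The midpoint bins of the pair held 1 and 0 genes and had PC1 scores of -0.042 and -0.041. The pair on chromosome 5, chr5:10580001-10615000 and chr5:10615001-10675000, lay in an outermost TAD of 480 kb, and its bins had no score and 1 gene each.

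The most crowded outermost TADs differed between libraries. They held 12 and 11 deep TADs in the Nip HS libraries (chr4:15970001-16360000 and chr9:8745001-9120000) and 14 and 13 in the Nip normal libraries (chr10:6710001-7290000 and chr10:7760001-8280000). In 93-11, they held 10 and 14 in HS (chr11:17790001-18185000 and chr4:3940001-4415000) and 14 and 13 in normal (chr5:25395001-25990000 and chr2:26460001-26965000). Those of HS libraries were 375 to 475 kb long and those of normal libraries 505 to 595 kb. Of the 7 with a score at the midpoint, 6 lay in B, between -0.039 and -0.061. The exception, chr4:3940001-4415000 of 93-11 HS replicate 2, had a PC1 of 0.008.

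Smaller shares of deep than of shallower TADs were found again in the other replicate, in all 4 groups. A TAD was matched where a TAD of any level in the other replicate and the TAD itself covered each other to at least 80%. In Nip HS, 23.4% and 22.5% of deep TADs were matched, and in Nip normal 33.8% and 37.0%. In 93-11, 20.7% and 24.1% were matched in HS and 33.9% and 33.6% in normal. The mean share for deep TADs was 23.0% in Nip HS, 35.4% in Nip normal, 22.4% in 93-11 HS and 33.8% in 93-11 normal. For TADs of levels 0 to 2 it was 32.2%, 54.6%, 26.6% and 49.8% in these groups. Deep TADs were lower in 4 of 4 replicate pairs, by 12.2 percentage points on average (exact sign-flip test, p = 0.125, the smallest that 4 pairs allow). Among TADs of 50 to 100 kb in both classes the difference was -12.9 points, again in 4 of 4 pairs.

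**Figure D5:**
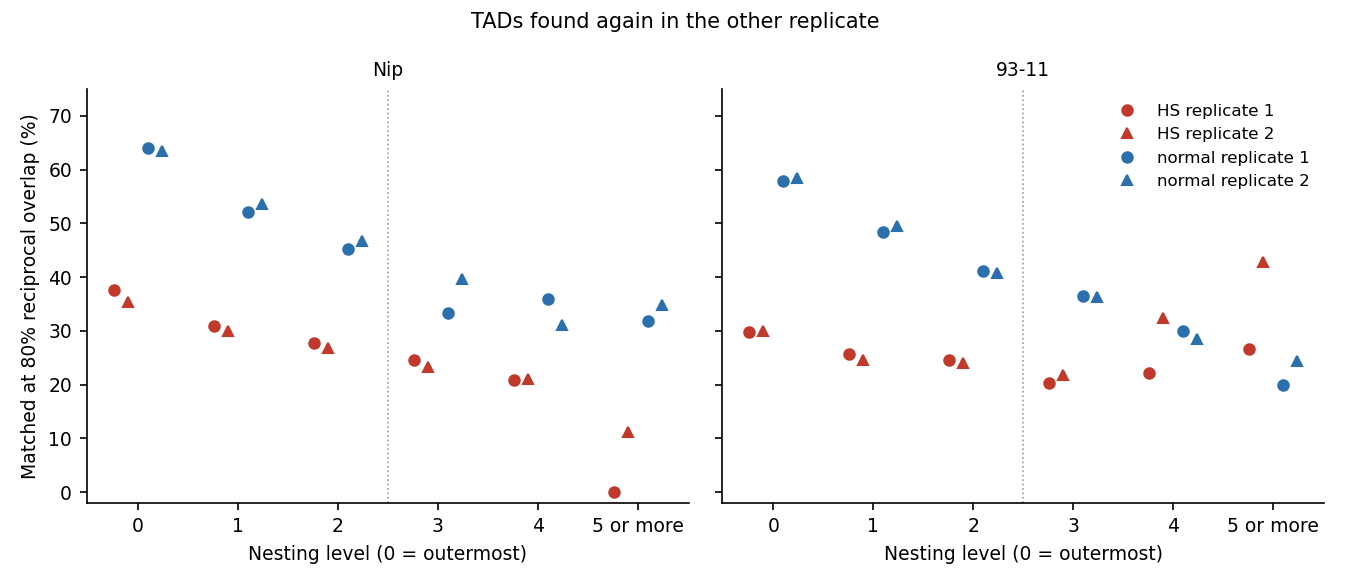
Percent of TADs matched in the other replicate at 80% reciprocal overlap (y axis) by nesting level (x axis), HS in red, normal in blue, circles for replicate 1 and triangles for replicate 2. Normal libraries lie above HS libraries at levels 0 to 3 in both cultivars, and the points for level 5 or more rest on 12 to 27 TADs a library in HS and 69 to 90 in normal.

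Many matched deep TADs had a partner of a lower level. Each matched deep TAD was counted once, by the level of 1 partner. Of these TADs, 24.0% and 20.3% in Nip HS and 50% and 42.2% in Nip normal had a partner of level 3 or more. In 93-11 the values were 18.5% and 20.4% in HS and 37.9% and 46.3% in normal. Over all deep TADs, those matched with any deep TAD were 5.09% in Nip HS and 16.5% in Nip normal. They were 4.44% in 93-11 HS and 14.4% in 93-11 normal. This wider count took in 191 of the 376 matched deep TADs of Nip normal replicate 1. The outermost TADs were matched in the same way. Holding TADs were matched in the other replicate in 35.9% and 33.3% of cases in Nip HS and in 67.7% and 67.1% in Nip normal, and in 26.1% and 26.2% in 93-11 HS and 59.9% and 65.8% in 93-11 normal. Other outermost TADs of 200 kb or more were matched in 28.2% and 32.4% of cases in Nip HS and 55.8% and 58.8% in Nip normal. In 93-11 they were matched in 19.5% and 24.3% of cases in HS and 55.5% and 53.4% in normal. These shares were lower than those of holding TADs in each of the 8 libraries, with no test, but the sets differed in size. Of the holding TADs, 107 to 146 per HS library and 6 to 26 per normal library were below 200 kb. Of the matched holding TADs, 35.1% to 44.8% in HS libraries and 60.4% to 64.9% in normal libraries again held deep TADs. Among all outermost TADs, whatever their size, 4.75% to 7.62% in HS libraries and 12.4% to 16.1% in normal libraries were holding TADs. As means of HS and normal, this share was 13.4% and 4.02% in Nip and 12.5% and 1.36% in 93-11 at 100 to 200 kb. At 200 to 400 kb it was 33.9% and 33.4% in Nip and 38.2% and 35.8% in 93-11. At 400 kb or more it was 59.4% and 72.4% in Nip and 45.4% and 70.5% in 93-11. Matched TADs must be of similar size, so the shares over all sizes are no fair baseline. Whether matched holding TADs held deep TADs again more often than their size alone gives was not tested. With 1 replicate pair per group, HS and normal were not tested against each other.

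Exact repeats were rare for TADs of any level. The same start and end in the other replicate were found for 4.83% of deep TADs and 6.70% of TADs of levels 0 to 2 in Nip HS, and for 6.33% and 12.8% in Nip normal. In 93-11 the shares were 4.05% and 4.11% in HS, and 5.69% and 8.52% in normal. In Nip, 6 deep TADs had the same start, end and a level of 3 or more in both HS replicates and 40 in both normal replicates. In 93-11 there were 4 and 26. No deep TAD was identical and deep in all 4 libraries of either cultivar. Over all levels, 20 TADs of Nip and 10 of 93-11 had the same start and end in all 4 libraries, of which 4 and 1 were outermost in each library.

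Places, rather than single TADs, were compared through 50-kb bins whose centre a deep TAD covered. Nip HS libraries had 390 and 444 such bins, of which 71 were shared, and Nip normal libraries had 1124 and 1237, of which 519 were shared. In 93-11, HS libraries had 594 and 485 with 87 shared, and normal libraries had 1419 and 1232 with 585 shared. The shared bins were 14.6% to 18.2% of each HS library and 41.2% to 47.5% of each normal library. Covered bins made up 5.22% to 7.65% of all bins in HS libraries and 15.1% to 18.3% in normal libraries, so that more sharing is open to normal libraries from their number alone. Bins of an HS library were covered in a single normal library of its cultivar in 27.3% to 36.0% of cases, and normal libraries had more covered bins to share than the other HS replicate.

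A bin was counted as lost where both normal libraries and neither HS library had a deep TAD there, and as gained in the opposite case. In Nip, 28 bins were gained (0.375% of 7468 bins) and 386 were lost (5.17%). In 93-11, 44 were gained (0.567% of 7763 bins) and 451 were lost (5.81%). The level chose these bins, so the counts were not tested. They depended on having both replicates. Nip gained bins numbered 218 without HS replicate 1, 215 without HS replicate 2 and 43 without normal replicate 2, and lost bins 983 without normal replicate 1 and 887 without normal replicate 2. In 93-11, gained bins numbered 251 without HS replicate 1 and 350 without HS replicate 2, and lost bins 963 without normal replicate 1 and 1119 without normal replicate 2. Lost bins outnumbered gained bins in each of these settings.

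Lost and gained bins resembled each other and were poorer in A than the genome. Both are places of deep TADs by their rule, so the low share in A restates that of deep TADs. The gained shares rest on 27 scored bins in Nip and 39 in 93-11. Of the scored bins, 29.5% of lost and 33.3% of gained bins were in A in Nip normal libraries, beside 49.96% of all bins. In 93-11, 32.4% of lost and 33.3% of gained bins were in A, beside 48.9% of all bins. Lost bins averaged 4.36 genes in Nip and 3.89 in 93-11, and gained bins 4.64 and 3.64. Bins with no deep TAD in any of the 4 libraries were in A in 56.5% of cases in Nip and 54.0% in 93-11, and they averaged 5.84 and 5.64 genes. The mean PC1 of lost bins was -0.0190 in HS and -0.0182 in normal in Nip, and -0.0149 in HS and -0.0157 in normal in 93-11. Over all scored bins it was 0.00021 in HS and -5.3e-05 in normal in Nip, and 9.2e-05 and -0.00077 in 93-11. Rises and falls of single bins cancel in such means, and changes of single bins are not given here.

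The longest lost stretch of Nip was chr4:3700001-4100000, 8 bins with 25 genes and a PC1 near -0.041 in all 4 libraries. Of 6 stretches of the next length, the first by coordinate were named, here and below. They were chr4:24550001-24850000 and chr4:33800001-34100000, which spanned 6 bins each with 43 and 52 genes and lay in A, with PC1 scores of 0.040 to 0.045. Deep nests were thus lost in gene-rich A chromatin as well. In 93-11, among the longest were chr2:26500001-26950000 with 9 bins and 12 genes, chr2:7900001-8300000 with 8 bins and 15 genes, and chr3:20400001-20800000 with 8 bins and 13 genes, and 4 stretches in all had 8 bins. All 3 lay in B, and the second is the place of the level-7 pair described above.

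Gained stretches were shorter. In Nip, the longest was chr3:19800001-19950000, 3 bins with 3 genes in B, followed by 6 stretches of 2 bins, among them chr2:4500001-4600000 with 9 genes in A and chr3:34650001-34750000 with 12 genes. The last had a mean PC1 of -0.003 and -0.027 in HS and -0.043 and -0.044 in normal, all in B. In 93-11, the longest was chr11:17950001-18200000, 5 bins with 8 genes in B, which overlaps the most crowded outermost TAD of HS replicate 1. It was followed by chr9:4750001-4950000, 4 bins with 4 genes in B, and chr6:25000001-25150000, 1 of 2 stretches of 3 bins, with 13 genes in A.

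A few places kept deep TADs in all 4 libraries, 19 bins in Nip (0.254% of 7468 bins) and 10 in 93-11 (0.129% of 7763 bins). Among the longest stretches, named after their values were seen, were chr11:8400001-8600000, chr4:16000001-16150000 and chr6:24600001-24700000 in Nip and chr1:31400001-31550000, chr9:3150001-3250000 and chr1:39700001-39750000 in 93-11. The one on chromosome 6 was 1 of 5 stretches of 2 bins and the last 1 of 5 of a single bin. All but the last lay in B. At chr4:16000001-16150000 of Nip, the outermost TADs were 390 and 415 kb with 12 and 8 deep TADs in HS, against 560 and 590 kb with 2 and 8 in normal. At chr1:31400001-31550000 of 93-11, they were 275 and 295 kb with 7 and 7 deep TADs in HS and 320 and 280 kb with 2 and 8 in normal. The nest at chr1:39700001-39750000 of 93-11 was small and stood in A, with outermost TADs of 100 and 205 kb in HS and 170 and 240 kb in normal, 2 to 4 deep TADs, and a PC1 of 0.043 in HS replicates and 0.042 in normal replicates. Deep TADs in all 4 libraries were the rule that chose these places, so their recurrence here is no result. The borders and the levels differed between libraries.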

How the data were processed

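Each of the 8 libraries had a compartment file and a TAD list, made per library by the authors. Per the labels and the methods, reads were trimmed with cutadapt 1.0, mapped with BWA or Bowtie2 and filtered in HiC-Pro 2.8.1. The authors deposited a PC1 score and a gene count per 50-kb bin, and for each TAD a start, an end (other columns, in steps of 5 kb) and a nesting level, read here as a score. The methods name HOMER at another resolution and hicFindTADs, whose TADs do not nest, so the tools behind these files and the genome build are not given in the sources used here. The files hold no contact counts, and the depth that the study gives per library was not used here, so no interval that needs depth is given.

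Parents and matches were found with Python 3.11.15, numpy 2.4.6 and pandas 2.3.3, on code tested on simulated lists. A TAD took the PC1, genes and distance of its midpoint. HS and normal were compared by exact two-sided permutation tests over libraries (smallest p 0.33 in a cultivar and 0.056 jointly), and deep with shallower TADs by exact sign-flip tests within libraries, at a threshold of 0.05 after Benjamini-Hochberg adjustment. Alternatives were other levels, overlaps, weights and size classes, single libraries left out and a replicate block. Named regions were the TADs of the highest level (at most 4 per cultivar), deep TADs identical in all 4 libraries (there were 0), the outermost TAD with most deep TADs in each library, and the 3 longest gained and lost stretches. Members and comparisons were chosen with earlier results of these data known. Coordinates are those of the files, counted from 1. Gene names and sequences are not analysed here.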

Additional observations from a re-analysis of the deposited data

Results flagged for a closer look

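The change in the place of deep TADs with HS had opposite signs in Nip and 93-11, but the test of the difference did not pass the threshold. The median distance from the chromosome end was 8.94 and 8.64 Mb in Nip HS libraries against a mean of 8.53 Mb in Nip normal libraries, and 8.80 and 8.65 Mb in 93-11 HS libraries against a mean of 9.32 Mb in 93-11 normal libraries. Every HS library of Nip was thus above its normal mean and every HS library of 93-11 below it, which is why the result is listed here. The change in Nip minus that in 93-11 was 0.858 Mb (exact permutation test over 36 relabellings, p = 0.11), and the Nip libraries of HS and normal overlapped. The share of deep TADs within 25% of the chromosome length from either end was higher in HS in both, by 0.205 points in Nip and 1.35 points in 93-11, so the sign in Nip depends on the measure.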

How the results depend on the processing

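Of 212 alternative values, 151 kept their direction and call or stayed within the spread, 51 moved, 8 reversed and 2 lost their call. For the 4 measures compared between HS and normal no call was possible in a cultivar. Those alternatives could only keep or reverse their direction, so the tally says nothing on calls there. With level 2 or more, the ratio of HS to normal in the number of TADs was 0.812 in Nip and 0.953 in 93-11, and with level 4 or more 0.266 and 0.369. Per 1 Mb of outermost TADs of 200 kb or more it was 0.875 and 0.961. The share of holding TADs, HS minus normal, was -9.45 points in Nip with level 2 or more, and -4.07 in Nip and -3.76 in 93-11 with level 4 or more. It was 0.479 and 2.36 for outermost TADs of 200 to 400 kb, a reversal, and -13.0 and -25.0 for those of 400 kb or more. The A share in Nip reversed to 0.877 points with level 2 or more. For Nip, the share of deep TADs within 25% of the chromosome length from either end differed by 0.205 points, which is toward the ends, while the distance went inward. Against levels 1 and 2 of the same nests, the A share of deep TADs differed by -2.33 points and the distance by 0.149 Mb (neither called after adjustment), and the distance differed by -0.0040 Mb within A bins and -0.115 Mb within B bins. The cause was not tested.

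Matched shares at 50% overlap were 64.6% in Nip HS, 70.9% in Nip normal, 68.0% in 93-11 HS and 70.04% in 93-11 normal. In the same group order they were 6.84%, 18.4%, 6.94% and 17.8% at 90% overlap, 4.83%, 6.33%, 4.05% and 5.69% for the same start and end, and 5.09%, 16.5%, 4.44% and 14.4% for a deep partner. With level 2 or more they were 26.3% in Nip HS, 42.0% in Nip normal and 38.2% in 93-11 normal. With level 4 or more they were 18.3% in Nip HS, 28.1% in 93-11 HS and 27.7% in 93-11 normal, and for innermost deep TADs 32.0% in 93-11 normal. Gained bins numbered 157 in Nip and 190 in 93-11 with level 2 or more and 3 and 4 with level 4 or more, and lost bins 913 and 877, and 113 and 119.

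With single libraries left out, HS minus normal ranged from -25.0 to -20.0 kb in median size in both cultivars. The A share ranged from -1.83 to 1.05 points in Nip, a reversal, and from 6.52 to 12.2 in 93-11. Genes per bin ranged from -0.0061 to 0.271 in Nip, a reversal, and from 0.3998 to 0.610 in 93-11. The distance ranged from 0.104 to 0.416 Mb in Nip and from -0.820 to -0.375 Mb in 93-11. The ratio of numbers ranged from 0.444 to 0.546 in Nip and from 0.534 to 0.667 in 93-11, and the share of holding TADs from -8.15 to -7.23 and from -9.50 to -6.29 points. Deep minus shallower ranged from -16.3 to -14.2 points in A share, from -0.986 to -0.892 genes and from 0.923 to 1.08 Mb. Gained bins ranged from 37 to 218 in Nip and from 58 to 350 in 93-11, and lost bins from 440 to 983 and from 503 to 1119, since fewer libraries had to meet the rule.

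Same-numbered replicates did not deviate together over PC1 (r = 0.018 in Nip and 0.014 in 93-11). The same check on bins with deep TADs gave r = 0.0065 in Nip and -0.021 in 93-11. Both checks cover bins only, and whether same-numbered samples shared a batch was not tested. With the replicate block the differences were -22.5 kb in both cultivars, -0.389 and 9.34 points, 0.132 and 0.505 genes, and 0.260 and -0.598 Mb, with joint p of 0.125, 0.375, 0.25 and 0.625 (exact permutation). Neither design can reach 0.05, since the smallest joint p is 0.125 with the block and 0.056 without it, so the block says nothing on calls.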
